A study of Homo sapiens and Mus musculus with 16 samples.

Results

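Accessible chromatin was described at the loci of 10 genes that carry out or restrain Wnt signaling or mark stem cells: the TCF/LEF factors LEF1, TCF7, TCF7L1 and TCF7L2, the negative-feedback genes AXIN2, RNF43 and ZNRF3, and the stem-cell genes LGR5, OLFM4 and ASCL2. Members were chosen by name, with earlier results of these lists known, and a region was taken as a member when it overlapped a gene body with 50 kb on each side. This rule took 127 of 118107 regions of the HPAF-II control list, 102 of 97047 of the HNF4G-KO list, 109 of 68074 of the KPC primary tumor list and 125 of 80843 of the KPC liver mets list. The regions nearest the 50 kb limit show what it took. In the control list the farthest region inside lay 49.0 kb from RNF43, at the 72.1st score percentile, and the nearest outside 50.1 kb from AXIN2, at the 30.3rd. In the primary tumor list they lay 49.5 and 50.3 kb from Tcf7, at the 69.2nd and 74.6th. Because sharing between lists and score percentile belong to the rule, the values below are descriptions, with no test.

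The series used ATAC-seq, in which a transposase cuts open chromatin, and covered 16 samples in 4 groups of 4 replicates. HPAF-II is a human pancreatic adenocarcinoma cell line. Its control samples had gone through CRISPR-Cas9 and are labelled WT, and its HNF4G-KO samples carried edits in HNF4G, a nuclear receptor of the hepatocyte nuclear factor family. Per the study's methods the knockout was a pool of single-cell clones. The KPC samples were untreated cell lines labelled WT, from the KPC mouse, a model of pancreatic cancer, with 1 line from the primary tumor and 1 from liver metastases. In both pairs the replicates of a group therefore share a line or clonal pool. Labels differed in medium between the human and mouse lines but not within a pair.

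Each group was deposited as 1 list of regions for its 4 replicates, with no value per replicate. Spread between replicates could therefore not be measured, and no difference between groups could be tested. Wilson 95% intervals are given for shares and cover counting error only. Sequencing depth is unknown, so the number of regions in a list and the power to call them cannot be told apart. The deposited score was used as a percentile within its own list, from 0 for the weakest to 100 for the strongest region. A region overlapping the other list of its pair by 1 bp is called shared, and otherwise one-list. Of 5 epithelial marker genes, 5 had a region within 1 kb of a start in every list. Of 7 markers of leukocytes, endothelium and fibroblasts, 3 had one in both HPAF-II lists (COL1A1, COL1A2 and PDGFRB). In both KPC lists 2 had one (COL1A1 and PECAM1), while PTPRC, CD3E and CDH5 had none in any list. The highest start percentile per gene ran from 54.2 to 94.5 for epithelial markers in control and from 62.8 to 86.7 for the others. In primary tumor these ranges were 16.1 to 58.1 and 75.8 to 84.3, and in liver mets 13.9 to 65.9 and 70.4 to 79.8. Start regions alone therefore do not give the cell type. HNF4G itself had a start region at the 82.4th percentile in control and the 82.7th in HNF4G-KO cells, which checks nothing about edits that leave the promoter in place.

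Canonical Wnt signaling stabilizes β-catenin, which enters the nucleus and binds TCF/LEF proteins on DNA to switch on target genes. AXIN2 is such a target and codes for a scaffold of the complex that destroys β-catenin, while RNF43 and ZNRF3 are membrane ubiquitin ligases that remove Frizzled receptors from the cell surface. R-spondin ligands, through receptors such as LGR5, relieve that removal. LGR5, OLFM4 (a secreted glycoprotein) and ASCL2 (a basic helix-loop-helix factor) are known as markers of intestinal stem cells. HPAF-II is known for loss of RNF43 function and dependence on secreted Wnt ligands.

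The TCF/LEF factors bind a short sequence, searched here as CTTTGAT on both strands in the central 200 bp of each region. It was found in 8 of 127 control regions at the 10 loci (6.30%, interval 3.23–11.9) and in 2.90% of the whole control list. In the HNF4G-KO list it was found in 5 of 102 regions (4.90%, with 2.93% of the whole list), in the primary tumor list in 6 of 109 (5.50%, with 2.74%), and in the liver mets list in 3 of 125 (2.40%, with 2.79%). With 400 bp searched, the liver mets share was 9.60% (5.72%). A match is a description of letters and not proof of binding. The human matches fell at 9 places, 8 of them at AXIN2, RNF43 or ZNRF3. Control regions covered 9 of the 9 while HNF4G-KO regions covered 6. The places were themselves found in regions of these lists, 8 in control regions, so their coverage was partly fixed by the search. The 3 places without an HNF4G-KO region lay in control-only regions, which made up 25.0% of the whole control list. In the mouse the matches, found in the same way, fell at 7 places, 6 of them in the windows of Axin2 or Rnf43. Those 40.7 and 39.4 kb upstream of Rnf43 lay in regions nearest to the start of Hsf5. Primary tumor regions covered 6 of the 7 places and liver mets regions 7, although only 3 of the 7 lay in the central 200 bp of a liver mets region.

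The sequences that both species share are shown first. At 3 places, the same 7 letters stood at the aligned position of an accessible region in human and mouse, at the AXIN2 start, upstream of AXIN2 and in an intron of RNF43. These were chosen after their values were seen. Sequences were read from the reference genomes on the strand of the gene, 5′ to 3′, with the TCF/LEF letters (CTTTGAT, or ATCAAAG where they lie on the other strand) in capitals. The AXIN2 start site lay 77 bp after the human 5′ end (hg38, chr17:65561557-65561585, minus strand) and 81 bp after the mouse one (mm10, chr11:108920416-108920444, plus strand), and the window printed is the same in both.
AXIN2 and Axin2 start: agccggctgcgCTTTGATaaggtcctggc
The upstream AXIN2 site (hg38, chr17:65588516-65588622, minus strand) lay 26.9 kb before the gene, and its mouse counterpart (mm10, chr11:108897795-108897901, plus strand) lay near the edge of the region centered 22.1 kb before Axin2, outside the central 200 bp.
AXIN2 upstream: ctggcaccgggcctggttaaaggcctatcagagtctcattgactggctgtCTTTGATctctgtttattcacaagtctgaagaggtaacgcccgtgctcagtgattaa
Axin2 upstream: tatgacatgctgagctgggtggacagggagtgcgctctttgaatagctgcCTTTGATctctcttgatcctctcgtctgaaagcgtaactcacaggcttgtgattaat
The RNF43 intronic site lay 25.9 kb into the human gene (hg38, chr17:58391654-58391760, minus strand) and 26.8 kb into the mouse gene (mm10, chr11:87689503-87689609, plus strand).
RNF43 intron: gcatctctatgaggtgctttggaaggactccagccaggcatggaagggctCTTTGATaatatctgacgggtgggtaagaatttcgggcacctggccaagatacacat
Rnf43 intron: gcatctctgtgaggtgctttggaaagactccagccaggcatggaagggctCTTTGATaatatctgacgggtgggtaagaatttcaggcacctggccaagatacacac

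Regions at these sites were found in every list and differed by 9.0 points or less within each pair. The AXIN2 start region stood at the 43.2nd percentile in control and the 52.3rd in HNF4G-KO cells, and at the 52.7th in primary tumor and the 54.1st in liver mets. The upstream AXIN2 region was among the strong regions of every list, at 88.1 in control, 88.5 in HNF4G-KO, 94.1 in primary tumor and 98.5 in liver mets. The RNF43 intronic region stood at 73.0, 76.2, 92.3 and 95.4 in the same order.

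The human sites covered in control but not in HNF4G-KO cells were weak. They lay in an RNF43 intron 52.8 kb after the start (hg38, chr17:58364757-58364863, minus strand, 31.4th percentile), in a TCF7L2 intron 57.2 kb after the start (chr10:113007412-113007518, plus strand, 25.7th) and 18.5 kb upstream of ZNRF3 (chr22:28865020-28865126, plus strand, 21.2nd). The RNF43 region was the strongest control-only region of its locus and so was named by a fixed rule. The others were chosen after their values were seen.
RNF43 control-only: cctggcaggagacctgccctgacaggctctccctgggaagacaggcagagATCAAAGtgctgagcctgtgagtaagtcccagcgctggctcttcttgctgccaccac
TCF7L2 control-only: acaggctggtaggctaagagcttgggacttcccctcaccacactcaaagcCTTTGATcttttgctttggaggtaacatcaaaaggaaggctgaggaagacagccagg
ZNRF3 control-only: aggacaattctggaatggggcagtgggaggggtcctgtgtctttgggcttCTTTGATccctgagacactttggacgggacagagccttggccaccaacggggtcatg

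Mouse sites differed in both directions between the KPC lines. An Lgr5 intronic region 103 kb after the start (site window mm10, chr10:115484683-115484789, minus strand) stood at the 58.9th percentile in primary tumor and the 95.8th in liver mets, and its width went from 414 to 803 bp. A region 40.8 kb upstream of Rnf43 and 4797 bp from the start of Hsf5 (site window chr11:87621971-87622077, plus strand) went the other way, from 44.7 to 13.0. Both were named by the fixed rule, as members of the 5 largest rises and 5 largest falls in the pair.
Lgr5 intron: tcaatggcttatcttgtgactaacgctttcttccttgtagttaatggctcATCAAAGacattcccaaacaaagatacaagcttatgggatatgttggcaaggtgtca
Rnf43 upstream: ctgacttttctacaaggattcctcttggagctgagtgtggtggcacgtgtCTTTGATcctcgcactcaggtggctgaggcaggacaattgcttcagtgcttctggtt

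The first comparison asked how accessibility at Wnt loci differed when HNF4G was knocked out. Of 127 control regions, 30 were control-only (23.6%, interval 17.1–31.7), near the 25.0% of the whole control list. Of 102 HNF4G-KO regions, 2 were KO-only (1.96%, interval 0.539–6.87), where the whole HNF4G-KO list had 6.76%. With both lists cut to equal size by score, the control-only share was 13.3% (whole list 15.1%) and the KO-only share 6.86% (12.7%). In the upper 50% of each list, 3 of 50 regions at the loci were KO-only, where the whole list had 4.44%. The control-only regions at these loci were weak and narrow, as were those of the whole list. Their median percentile was 14.6, with 17.9 for control-only regions of the whole list. Their median width was 261.5 bp, with 263 bp in the whole list, against 599 bp for shared regions at the loci. Their highest percentile was 39.3, while the far more numerous control-only regions of the whole list reached 94.7. Of the 30, 2 lay within 1 kb of an annotated transcript start, as did 4197 of the 29475 control-only regions of the whole list. Restricted to regions whose nearest coding start was the member gene, 25 of 102 control regions were control-only.

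**Figure D1:**
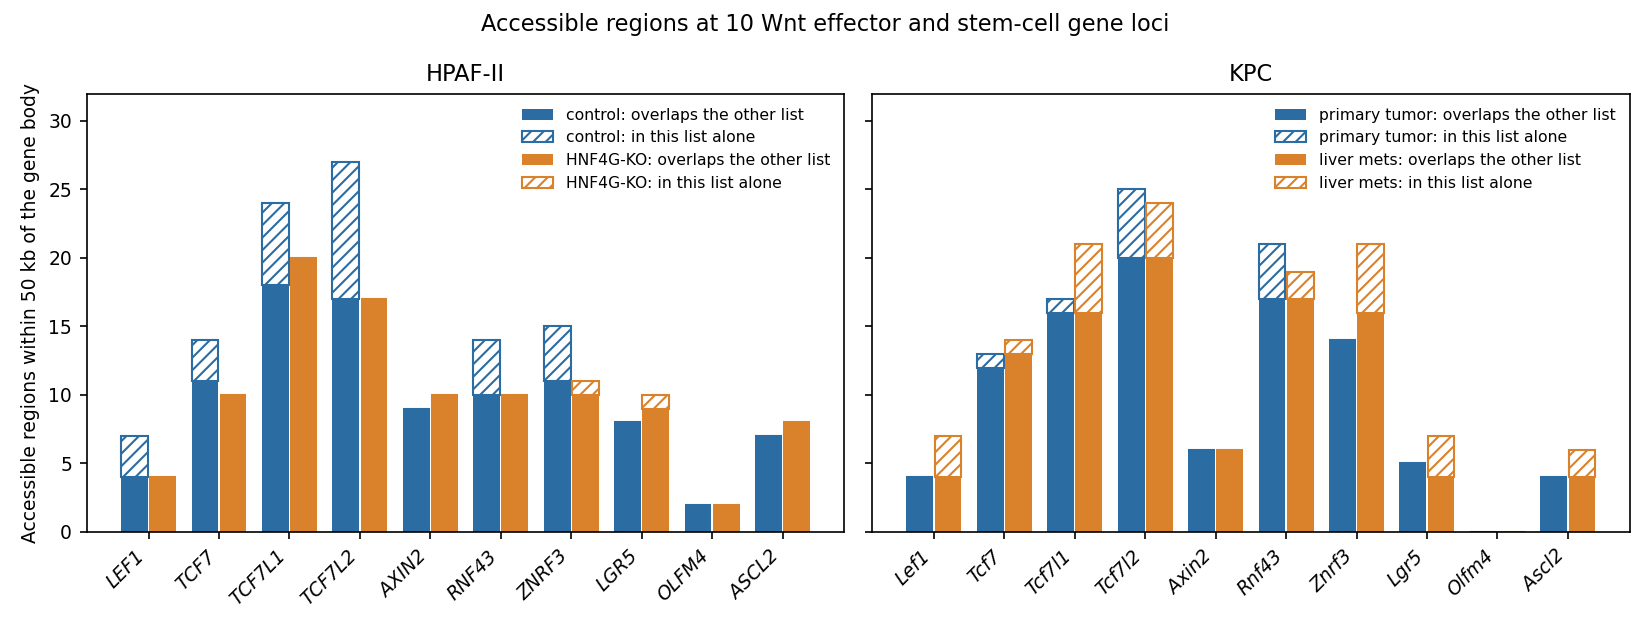
Number of accessible regions within 50 kb of each gene body, in the HPAF-II lists (left) and the KPC lists (right). Filled bars count regions overlapping the other list of the pair and hatched bars regions in 1 list alone; hatched control bars are tallest at TCF7L2, with 10 of 27 regions, and Olfm4 has no region in either mouse list.

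The 97 shared control regions at the loci had a median change in score percentile, HNF4G-KO minus control, of −3.04 points, with 68 lower and 29 higher. Over all 88632 shared regions of the control list the median change was −4.65, with 62050 lower and 26582 higher. The sign depended on the ranking, since the median at the loci was 1.88 with lists of equal size and 2.63 with ranks among shared regions alone. The control list was longer, and its control-only regions had a median percentile of 17.9, so ranks shift down in the shorter list and changes are best read against that shift. Of the 97, 18 were lower by at least 20 points (18.6%, with 14.9% over all shared regions) and 2 were higher by as much (2.06%, with 2.85%). The loci as a set thus stood near the whole list.

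The TCF/LEF factors held 22 of the 30 control-only regions, 22 of their own 72 (30.6%, interval 21.1–42, with 25.0% of the whole list). None of their 51 HNF4G-KO regions was KO-only. Of their 50 shared regions, 14 were lower by at least 20 points (28.0%, with 14.9% over all shared regions). Their median change was −4.12, which turned to 0.63 with ranks among shared regions alone. With lists of equal size their control-only share was 17.5% (whole list 15.1%). The negative-feedback genes had 8 control-only regions of 38 (21.1%, interval 11.1–36.3), 1 KO-only region of 31, and 1 of 30 shared regions lower by at least 20 points, with a median change of −1.99. The stem-cell genes had 0 control-only regions of 17 (interval up to 18.4%) and 1 KO-only region of 20, and 3 of their 17 shared regions were lower by at least 20 points.

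LEF1, a TCF/LEF factor made in lymphocytes and in cells with active Wnt signaling, had the lowest median change of the 10 genes. Its annotated start had no region within 1 kb in either list. Of 7 control regions, 3 were control-only, at the 33.0th, 5.44th and 0.478th percentiles. The 4 shared regions were all lower and all narrower in HNF4G-KO cells. Shared regions of the whole lists were also narrower there, with a median width of 480 bp against 565 bp in control. The region 110 kb after the start, in an intron (hg38, chr4:108058703-108059035), stood at the 61.3rd percentile in control and the 13.0th in HNF4G-KO, a change of −48.2 points and the largest fall at the 10 loci. The intronic region at 50.3 kb went from 41.2 to 17.3. A region 138 kb after the start, past the gene's 3′ end and 2879 bp from the start of HADH, went from 59.5 to 17.3. The region 46.3 kb upstream went from 35.5 to 0.786. Their median change was −38.48, and it was −25.89 when regions were ranked among shared regions alone. Widths in the order given here were 333 and 261 bp, 443 and 326 bp, 376 and 253 bp, and 336 and 200 bp, control first.

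TCF7L1, a TCF/LEF factor that often acts as a repressor of Wnt targets, was accessible over its 3′ introns. Of its 24 control regions 6 were control-only. Of 18 shared regions 16 were lower in HNF4G-KO cells, 6 of them by at least 20 points. Over all 88632 shared control regions 62050 were lower. Of the 24 control regions, 17 had TCF7L1 as nearest coding start. The others were nearest to TGOLN2 or RETSAT. Among those were the control-only regions at 185, 193 and 207 kb, and a fall from 41.7 to 10.2 at 192 kb. The intronic region at 116 kb stood at 92.2 in control and 63.7 in HNF4G-KO. The region at 48.0 kb went from 53.8 to 10.8, the largest fall of the gene. The intronic region at 155 kb did not share this change, at 87.8 and 89.9. Its start region was weak in both lists, at 25.5 and a highest value of 26.5. In all, 17 of the 18 shared regions were wider than the HNF4G-KO region that overlapped them most. The same count was not made over all shared regions, whose median width was 565 bp in control and 480 bp in HNF4G-KO.

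TCF7L2, the TCF/LEF factor most used by gut epithelium, had its strong regions in both lists. Intronic regions at 124, 137 and 144 kb stood at 96.8, 97.3 and 93.5 in control and at 98.5, 97.6 and 91.4 in HNF4G-KO. The start region was at 93.7 and 94.0. By contrast, intronic regions at 113 and 9.16 kb went from 48.4 to 15.5 and from 47.2 to 15.5, and a region 30.4 kb upstream from 53.8 to 22.8. The locus had the most control-only regions, 10 of 27, with percentiles from 0.478 to 36.3. Without TCF7L2, 20 of the other 100 control regions were control-only.

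TCF7, which codes for the factor TCF1, changed less. Of 14 control regions 3 were control-only (31.0, 22.8 and 4.70). Regions at and after the gene stayed high, such as an internal start at 26.3 kb with 76.5 in control and 81.7 in HNF4G-KO, and a downstream intronic region at 69.6 kb with 86.1 and 73.5. The largest fall was 21.5 kb upstream, from 81.2 to 55.4. An apparent rise from 36.1 to 72.9 arose where 2 control regions overlapped 1 wide HNF4G-KO region of 1598 bp.

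**Figure D2:**
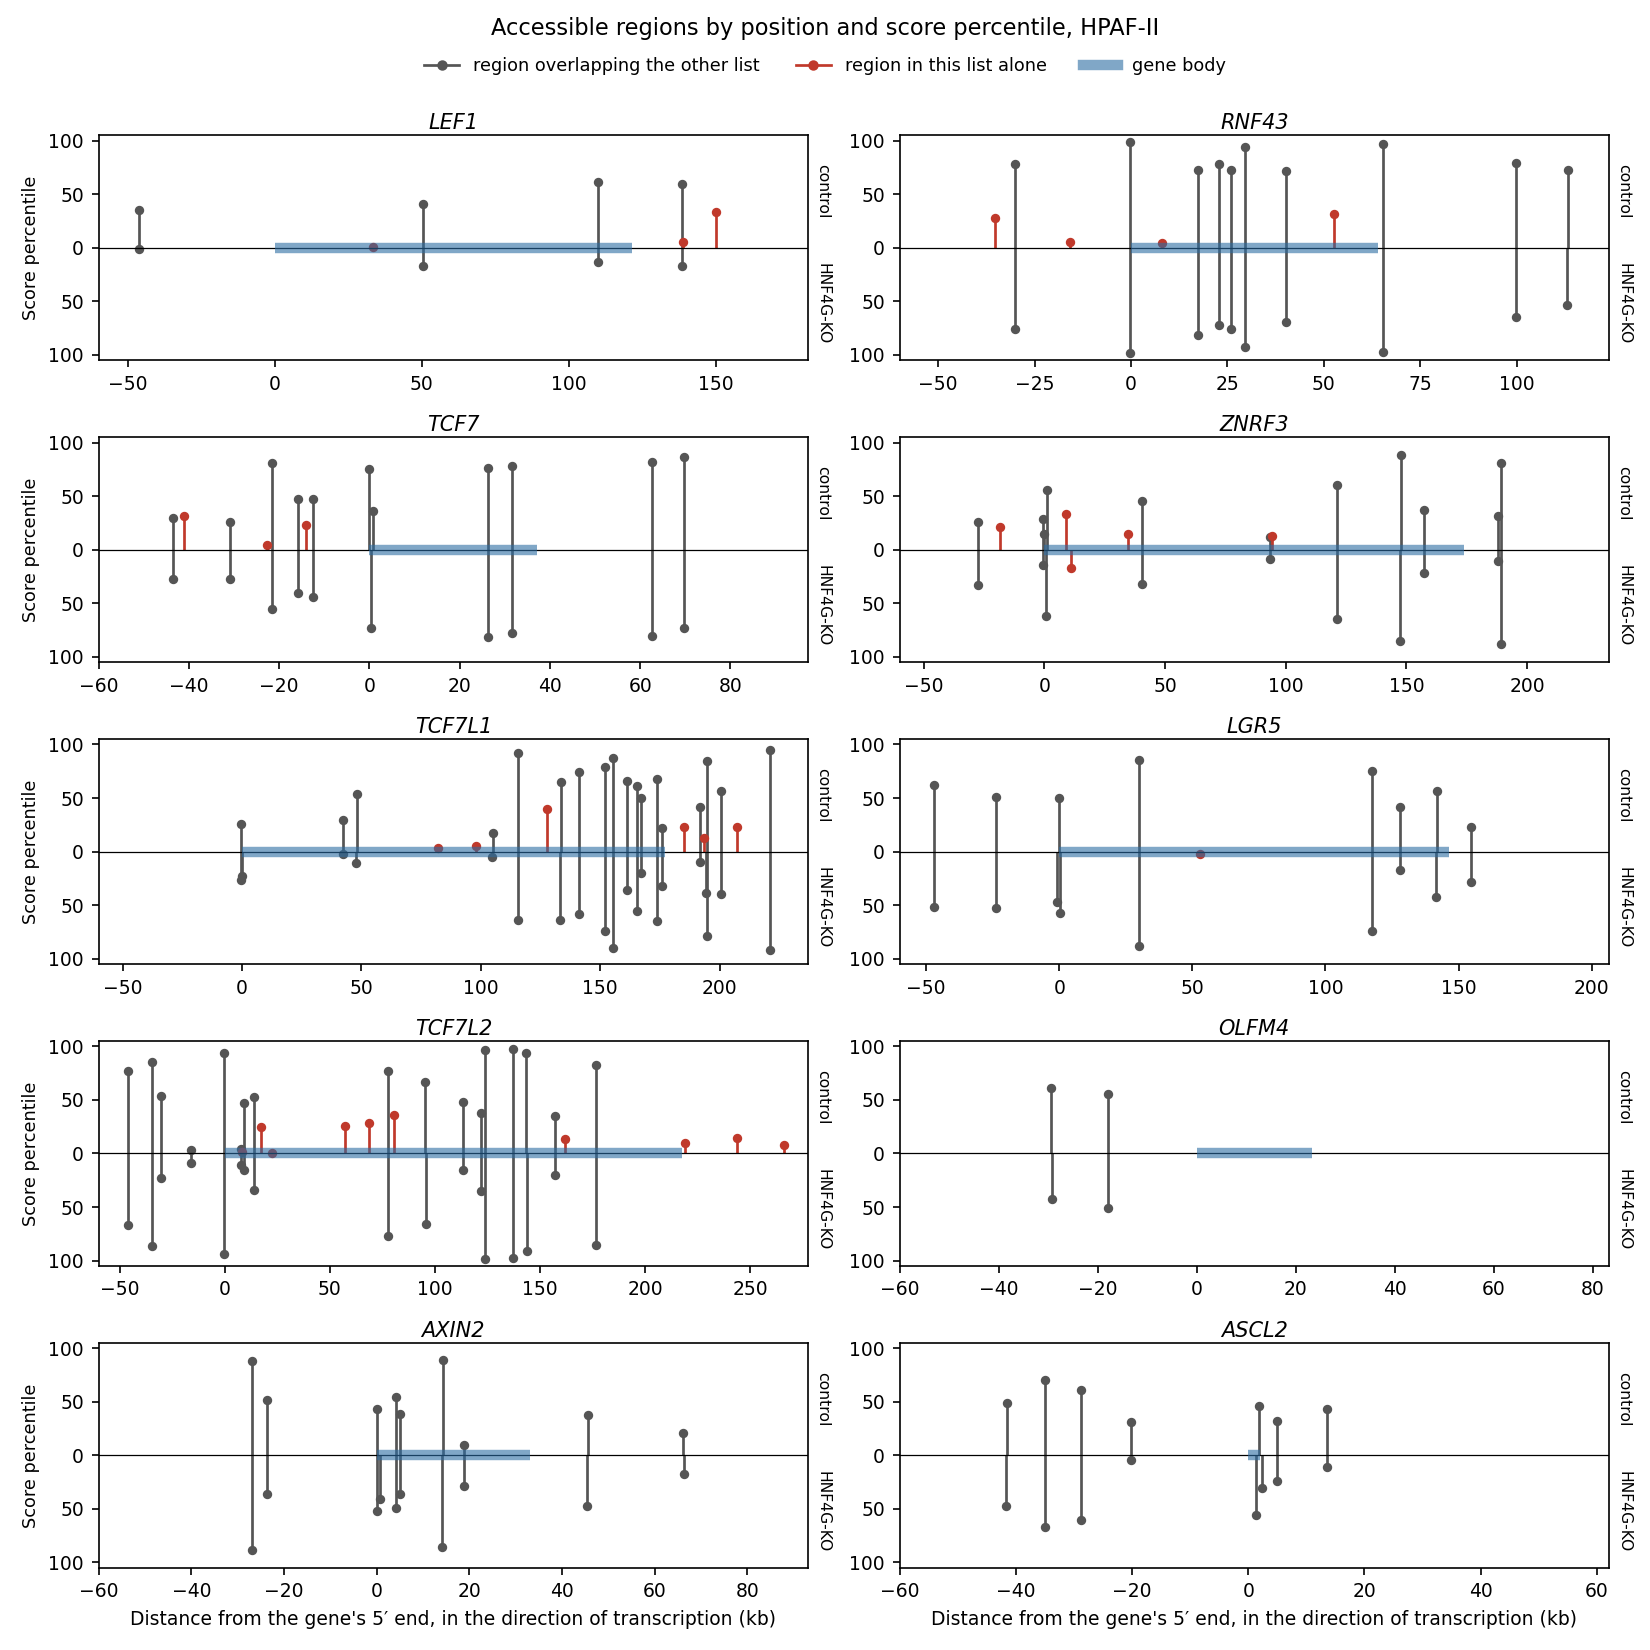
Accessible regions of HPAF-II by distance from each gene's 5′ end (x axis, kb) and score percentile (y axis), control above the line and HNF4G-KO below. Gray stems overlap the other list, red stems are in 1 list alone and the blue bar is the gene body; LEF1 stems below the line stay at or under 17.3 while the tall TCF7L2 and RNF43 stems are mirrored.

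Among the negative-feedback genes, AXIN2 had no control-only and no KO-only region. Its strongest regions, 26.9 kb upstream and in an intron at 14.3 kb, stood at 88.1 and 88.8 in control and at 88.5 and 85.1 in HNF4G-KO. A weak intronic region at 18.9 kb was higher, at 9.47 and 28.6. A region 23.7 kb upstream was lower, at 51.4 and 35.6.

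RNF43 held the strongest start region of the 10 genes, at 98.9 in control and 98.1 in HNF4G-KO cells. Its introns carried a row of regions that differed little. The region at 29.6 kb stood at 93.9 and 93.2, that at 17.4 kb at 72.6 and 81.3, and that at 40.1 kb at 71.4 and 69.2. The 4 control-only regions of the locus lay at 31.4, 27.3, 5.44 and 4.44. A region 65.3 kb after the RNF43 start, at 96.7 and 97.9, lies 97 bp from the start of SUPT4H1. Of the 10 shared regions of the locus 7 were lower in HNF4G-KO cells, as were 62050 of all 88632 shared control regions. The larger falls, 79.4 to 65.1 and 72.1 to 53.5, were nearest to TSPOAP1. Among those nearest to RNF43 the largest was at 22.8 kb, from 77.9 to 72.6.

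ZNRF3 had 4 control-only regions of 15 and 1 KO-only region of 11, the latter in an intron at 10.8 kb with a percentile of 17.3. Its strongest region inside the gene, at 148 kb, stood at 88.1 in control and 85.7 in HNF4G-KO. The strongest control-only region lay in an intron at 8.94 kb (33.0). Around the start, 2 control regions (14.6 and 55.6) overlapped 1 HNF4G-KO region of 1765 bp at 62.1, so the largest rise at the 10 loci, 47.5 points, came from a merged region. The window also holds KREMEN1, a receptor for the Wnt inhibitor DKK1, whose start region stood at 81.3 and 87.9.

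Of the stem-cell loci, LGR5 held 8 control regions, ASCL2 held 7 and OLFM4 held 2. LGR5 had a start region at 49.7 in control, 2048 bp wide, which was 2 regions in HNF4G-KO cells with a highest percentile of 57.8. Its strongest region, in an intron at 29.8 kb, stood at 85.1 and 88.6. An internal start at 128 kb was lower, at 41.2 and 17.3. The only KO-only region, at 52.9 kb, was weak (2.35).

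OLFM4 had no region in its body or at its start. Its regions lay 29.4 and 18.0 kb upstream, at 60.9 and 55.7 in control and at 42.6 and 50.5 in HNF4G-KO. ASCL2 had no region within 1 kb of its start. The 7 control regions of its window were all shared and, by the region with the largest overlap, all lower in HNF4G-KO cells. Over all 88632 shared control regions 62050 were lower. The region 13.6 kb after the start went from 43.7 to 11.1, that 20.2 kb upstream from 31.4 to 4.27, and the 1792 bp region over the gene body from 46.5 to 30.4. This last region overlapped 2 HNF4G-KO regions, and the one that covered less of it stood higher, at 55.3. The other 4 changes ran from −8.6 to −0.6 points. Their median change was −8.64, but it was 2.63 with regions ranked among shared regions alone, so the direction at ASCL2 depends on the ranking.

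**Figure D3:**
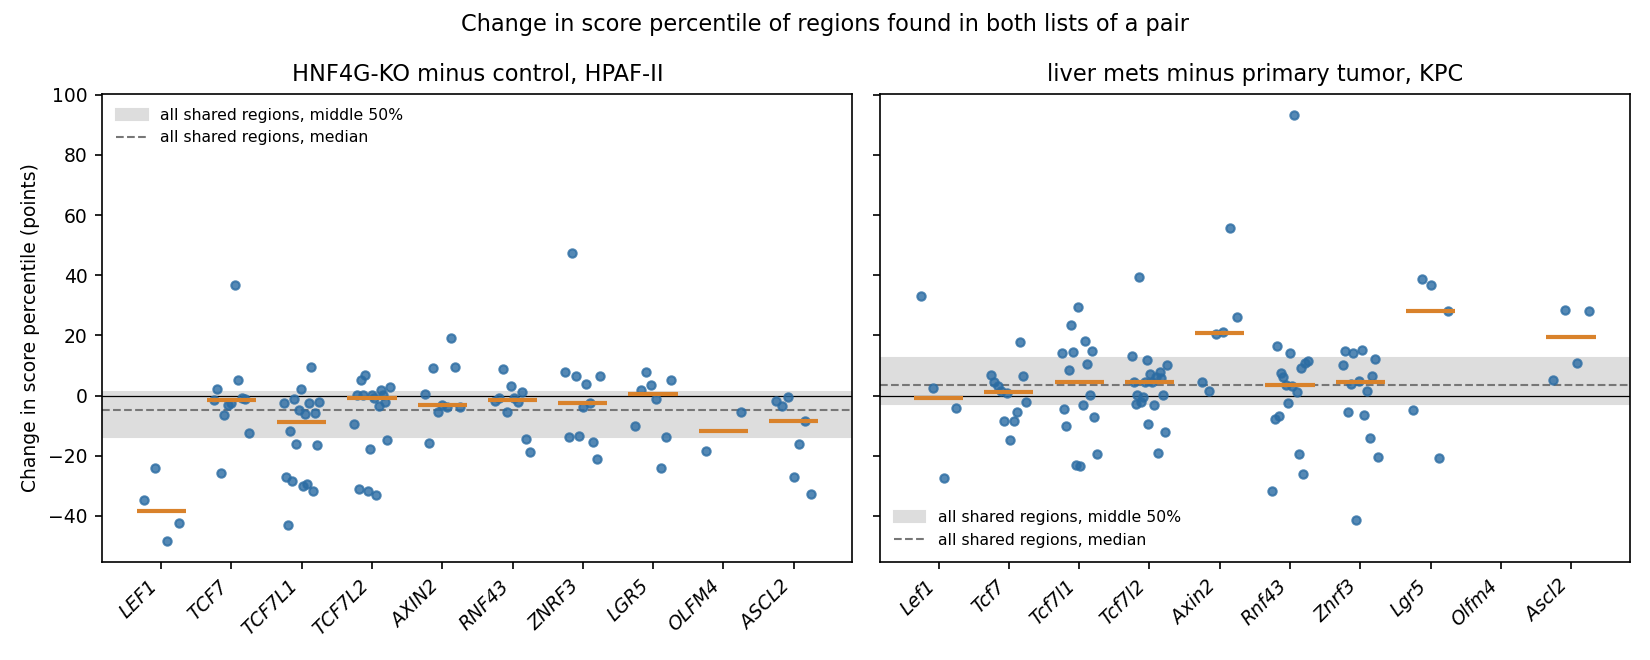
Change in score percentile (points, y axis) of each shared region, by gene (x axis), HNF4G-KO minus control on the left and liver mets minus primary tumor on the right. Orange bars are gene medians, and the gray band and dashed line give the middle 50% and median of all shared regions; the 4 LEF1 points lie from −48.2 to −23.9 and the 6 Axin2 points from 1.4 to 55.7.

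The second comparison set the KPC line from liver metastases beside that from the primary tumor. Of 109 primary tumor regions at the loci 11 were tumor-only (10.1%, interval 5.73–17.2, with 8.51% of the whole list), and of 125 liver mets regions 25 were mets-only (interval 13.9–27.9%, with 20.2% of the whole list). The 98 shared primary tumor regions had a median change of 4.38 points, liver mets minus primary tumor, where all shared regions had 3.67. With lists of equal size the median turned to −1.34 (all shared regions −0.63), and the tumor-only share, 17.4%, was then above the mets-only share, 13.2%. Of the 98, 64 were higher and 34 lower, where all 62280 shared regions had 40446 higher and 21833 lower. A rise of at least 20 points was seen in 14 (14.3%, with 12.9% over all shared regions), and a fall as large in 8 (8.16%, with 5.12%).

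By role, tumor-only regions were 7 of 59 at the TCF/LEF factors, 4 of 41 at the negative-feedback genes and 0 of 9 at the stem-cell genes. Over the whole list the share was 8.51%. Mets-only regions were 13 of 66 (19.7%), 7 of 46 (15.2%) and 5 of 13 (38.5%, interval 17.7–64.5), with 20.2% of the whole list. Of the 5 at stem-cell genes, 3 had the member gene as nearest coding start. The median change was 1.98, 4.98 and 28.05 points. Of the 9 shared stem-cell regions 5 were higher by at least 20 points (55.6%, with 12.9% over all shared regions). However, 1 of these is a tumor region joined to another in liver mets. A further 3 are nearest to Zfc3h1, Th or Tspan32, which leaves 1 at the body of a member gene. Counted over liver mets regions, 4 of 8 were higher by as much and the median was 19.44. With 100 kb on each side, their mets-only share was 23.1%.

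Lgr5 had 3 mets-only regions and none that was tumor-only. The strongest of them, in an intron 82.1 kb after the start (mm10, chr10:115505178-115506178), stood at the 64.7th percentile and was 1001 bp wide. The others, 29.9 kb upstream and in an intron at 95.5 kb, stood at 41.3 and 29.7. The intronic region at 103 kb, with its TCF/LEF letters, went from 58.9 to 95.8 (above). The start region stood at 67.1 and 62.3 and was 1025 bp wide in primary tumor and 1932 bp in liver mets. In liver mets it also covered a second tumor region at 23.6, so the rise of 38.7 points of that region came from a merged region. Past the gene, a region at 149 kb was lower (48.1 and 27.5) and one at 181 kb higher (11.6 and 39.7), both nearest to Zfc3h1.

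Ascl2 had no region at its start or in its body in either line. Its window held 4 shared regions, all higher in liver mets, from 19.4 to 47.9, from 14.8 to 42.8, from 38.4 to 49.2 and from 12.0 to 17.3. Their median change was 19.44. Mets-only regions stood at 31.6 and 21.0. None of these regions had Ascl2 as its nearest coding start; 5 were nearest to Tspan32 and 1 to Th. Olfm4 had no region within 50 kb in either KPC list, where HPAF-II cells had 2.

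Axin2 showed the same direction at every region. All 6 primary tumor regions were shared and all were higher in liver mets, as were 40446 of all 62280 shared primary tumor regions. The strongest, 22.1 kb upstream, stood at 94.1 and 98.5. A region 60.5 kb after the start, beyond the gene, went from 70.6 to 96.9 and one at 32.1 kb from 1.96 to 57.7. The intronic region at 5.05 kb went from 9.05 to 30.1 and the second start region from 7.92 to 28.4, while the start region itself differed by 1.4 points. The median change was 20.79. With lists of equal size it was 7.52, with 5 of 6 regions higher.

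Rnf43 was the most densely accessible locus, with 21 regions in primary tumor and 19 in liver mets. Its start stood at 91.9 and 98.1 and its intronic regions at 34.5 and 26.9 kb at 97.5 and 98.7, and at 92.3 and 95.4. Tumor-only regions were weak (24.8, 19.6, 9.17 and 3.03), as were mets-only regions (25.4 and 4.98). An apparent rise from 2.09 to 95.4 came from a weak tumor region joined to the 26.9 kb region in the liver mets list. Downstream, next to Supt4a, one region was lower (65.4 and 39.2).

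Znrf3 had 5 mets-only regions and no tumor-only region. The strongest mets-only region, in an intron at 12.3 kb, stood at 49.9. The largest fall of the KPC loci was also here, at an intronic region 101 kb after the start (mm10, chr11:5343617-5344048), from 72.9 to 31.6. Near Kremen1, a region 207 kb after the Znrf3 start went from 93.9 to 73.5.

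The TCF/LEF factor loci were mixed. Lef1 gained an intronic mets-only region at 29.0 kb (mm10, chr3:131139328-131139707) at the 51.9th percentile, the only region inside the gene in either list. The region 25.1 kb upstream went from 52.4 to 85.4. Past the gene, regions at 128, 140 and 161 kb stood at 58.3 and 60.9, 42.5 and 15.0, and 61.4 and 57.4, all nearest to Hadh. Lef1 had no start region in either line.

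Tcf7l2 kept its strong regions, such as that 8.77 kb upstream at 96.6 and 96.2 and the intronic region at 53.8 kb at 89.3 and 95.5. It also held one-list regions well above the lowest scores. Of its 5 tumor-only regions, all intronic, the highest stood at 64.6 (110 kb) and 51.6 (56.1 kb). Of its 4 mets-only regions the highest, at 46.7 kb, stood at 64.8. A region 27.7 kb upstream was higher in liver mets, at 29.7 and 69.0.

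Tcf7l1 had 1 tumor-only region (16.8) and 5 mets-only regions, none above 21.0. Its strongest intronic region, at 148 kb, was lower in liver mets, at 92.0 and 68.6, and its start at 78.4 and 68.3. Intronic regions at 122 and 142 kb were higher, at 15.7 and 39.3 and at 12.7 and 42.1. Tcf7 had 1 one-list region in each line, at 45.9 in primary tumor and at 54.5 in liver mets, the latter in an exon at 29.9 kb. No shared Tcf7 region changed by 20 points or more.

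**Figure D4:**
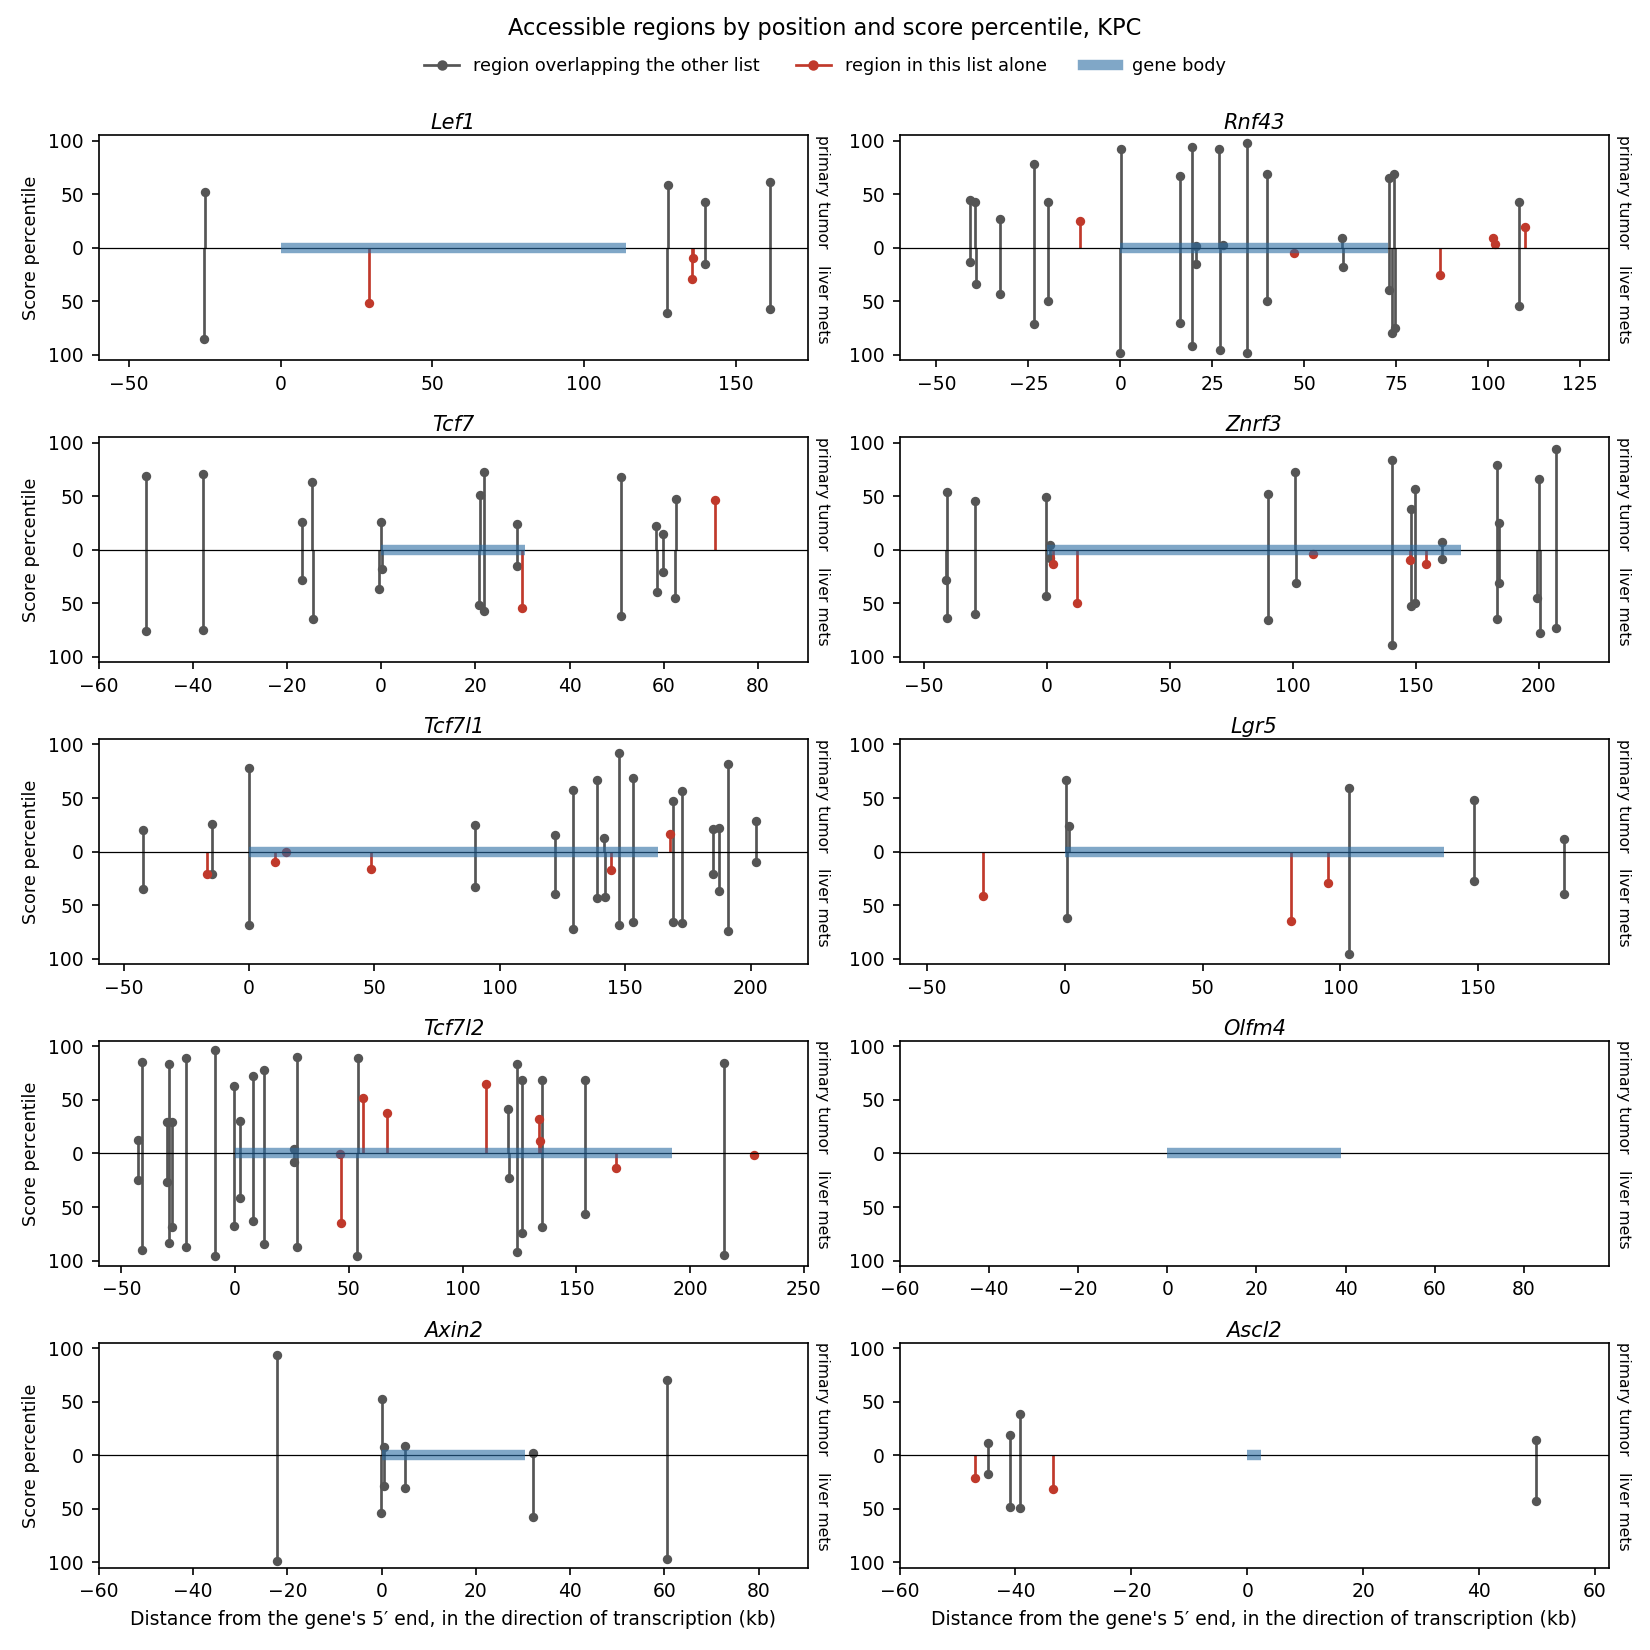
Accessible regions of the KPC lines by distance from each gene's 5′ end (x axis, kb) and score percentile (y axis), primary tumor above the line and liver mets below. Gray stems overlap the other list, red stems are in 1 list alone and the blue bar is the gene body; red stems at Lgr5 lie below the line only, the tallest at 64.7, and red stems at Tcf7l2 lie on both sides.

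Start sites were present in the same genes throughout. In every list 7 of the 10 genes had a region within 1 kb of an annotated start, and LEF1, OLFM4 and ASCL2 had none in either species. For comparison, 75.1% of coding genes had one in control, 73.0% in HNF4G-KO, 58.5% in primary tumor and 59.6% in liver mets. The highest start percentile of each member with a region differed by at most 10 points within a pair, apart from Tcf7 (26.0 and 37.1) and Tcf7l1 (78.4 and 68.3). Most were below the median of coding genes with a start region, which was 85.0 in control and 74.3 in primary tumor. RNF43 and TCF7L2 were above it in HPAF-II cells, at 98.9 and 93.7 in control. The species differed in TCF7, at 76.5 in control and 26.0 in primary tumor, and in TCF7L1, at 25.5 and 78.4, although percentiles of different lists and species share no scale.

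**Figure D5:**
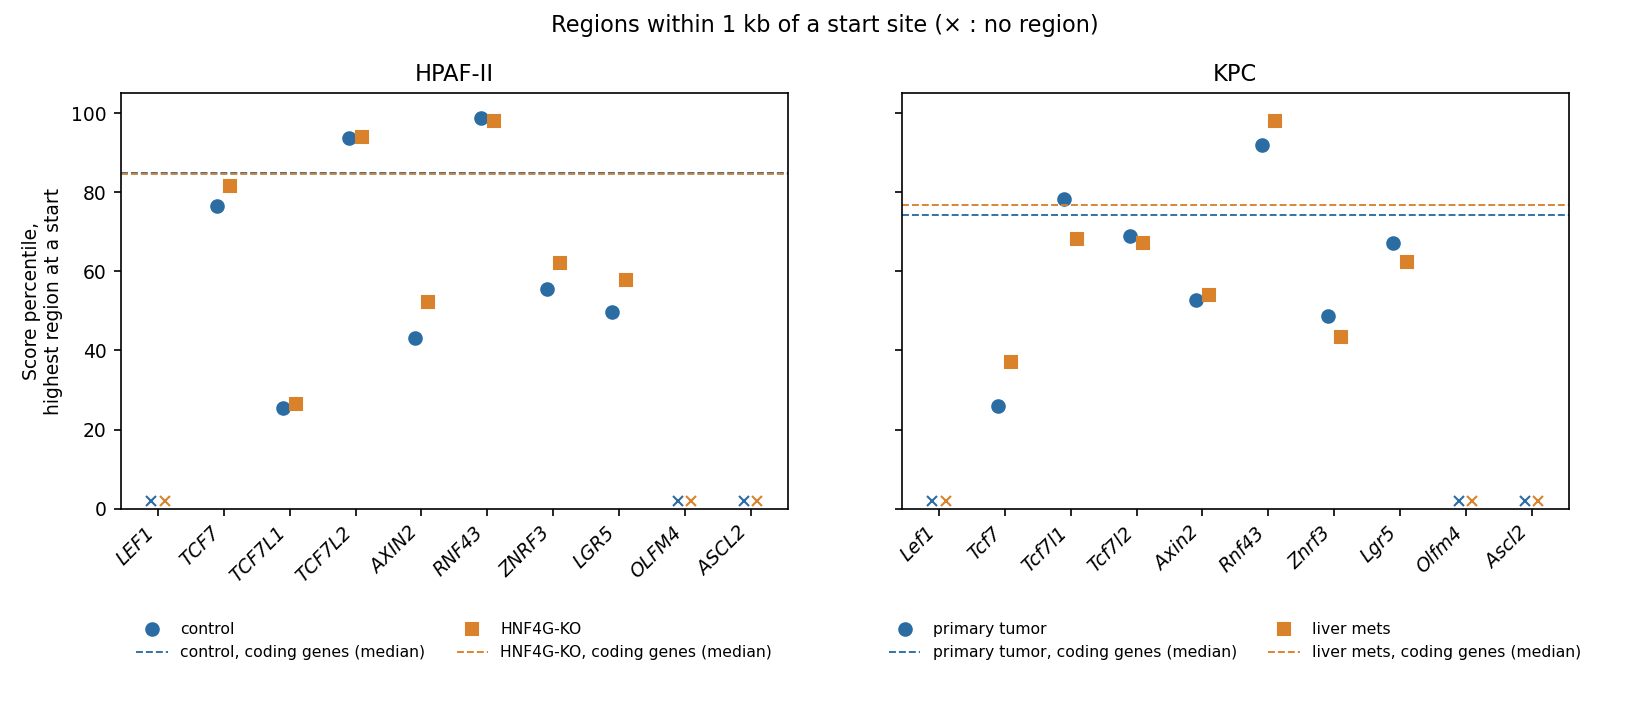
Score percentile of the highest region within 1 kb of an annotated start (y axis), by gene (x axis), in the HPAF-II lists (left) and the KPC lists (right). Circles and squares are the first and second list of each pair, crosses mark genes with no region and dashed lines the median of coding genes with a start region; RNF43 is the highest point in every list and LEF1, OLFM4 and ASCL2 have crosses throughout.

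Human and mouse regions were also compared by sequence, with an alignment of at least 50 bases counted as a match. Of 127 control regions 34 aligned with a primary tumor region at the same gene (26.8%), as did 33 of 109 in reverse (30.3%). No region aligned at LEF1, OLFM4 or ASCL2. Control-only regions aligned in 2 of 30 cases (6.67%) and shared ones in 32 of 97 (33.0%), with median widths of 261.5 and 599 bp, which limits how many bases could align. The part of width in this difference was not tested.

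Aligned pairs at RNF43 and AXIN2 included regions that were strong in both species. The RNF43 intronic region at 29.6 kb aligned with the Rnf43 region at 34.5 kb over 659 bases with 74.4% identity, and the one at 25.9 kb with that at 26.9 kb over 372 bases with 88.4% identity. The upstream AXIN2 region aligned over 594 bases with 69.9% identity. The AXIN2 start, near the middle of both lists at 43.2 and 52.7, aligned over 529 bases with 82.8%. At TCF7L2 the pairing was uneven. The control region at 124 kb (96.8, also in HNF4G-KO) aligned over 168 bases with the tumor-only region at 110 kb (64.6). A control-only region at 8.11 kb, at the 1.13th percentile, aligned over 273 bases with 92.3% identity to a mouse region at 72.6.

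Other sequences were counted in the same central windows. The letters CAAAGTCCA, a form of the HNF4 motif, were in 0 of 127 control and 0 of 102 HNF4G-KO regions at the loci (intervals up to 2.94% and 3.63%), and in 0.727% and 0.679% of the whole lists. They were in 0 of 109 primary tumor and 1 of 125 liver mets regions. TGTTTAC, a forkhead sequence bound by FOXA factors, was in 9 of 127 control regions (7.09%, with 4.38% of the whole list) and 7 of 102 HNF4G-KO regions (6.86%, with 4.32%). In the KPC lists it was near the whole-list share. It was in 4 of 109 primary tumor regions (3.67%, interval 1.44–9.06, with 4.03%) and 4 of 125 liver mets regions (3.20%, interval 1.25–7.94, with 4.51%). TGANTCA, the AP-1 sequence, was in 17.3% of control regions (interval 11.7–24.8, with 24.3% of the whole list). It was in 27.5% of HNF4G-KO regions (interval 19.7–36.8, with 25.1%). Of these 102 regions 100 overlapped a control region, so the 2 shares largely count the same places. The central window moves with the region center. Both OLFM4 regions, for example, held the letters in the HNF4G-KO list and neither did in the control list. In the KPC lists TGANTCA was in 39.4% of primary tumor and 38.4% of liver mets regions at the loci, above the 29.9% and 31.4% of the whole lists.

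The same counts were made at 70 other Wnt pathway genes, a list of ligands, receptors, modulators and destruction complex members. Of their 775 control regions 144 were control-only (18.6%, interval 16–21.5, with 25.0% of the whole list), and of their 683 HNF4G-KO regions 37 were KO-only (5.42%, with 6.76%). The most control-only regions were at ROR2 (8 of 23), WLS (6 of 18), which exports Wnt ligands, and, with 5 each, the receptors FZD5 (5 of 16) and LGR4 (5 of 17) and the ligand WNT9B (5 of 19). The most KO-only regions were at WNT11 (3 of 12). CTNNB1, the gene for β-catenin, AXIN1, LRP5, RYK, LGR4, SFRP1 and NKD1 had 2 each. In the KPC pair, 57 of 602 primary tumor regions were tumor-only (9.47%, with 8.51% of the whole list) and 111 of 680 liver mets regions mets-only (16.3%, interval 13.7–19.3, with 20.2%). Mets-only regions were most numerous at LGR6 (6 of 24), DKK2 (5 of 15) and FZD7 (5 of 9). Tumor-only regions were most numerous at AXIN1 (5 of 19) and at the neighboring WNT1 (5 of 18) and WNT10B (5 of 19), whose windows overlap and so share regions.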

How the data were processed

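Per the labels, ATAC-seq was run on 16 samples by the Omni-ATAC protocol. The submitters' processing notes name Bowtie2 2.2.6, MACS2 2.1.1.20160309 and DiffBind, and the builds hg38 and mm10. Peak thresholds, read shifting and the handling of replicates for these lists are not given in the sources used here. The authors deposited 1 region list per group with a whole-number score, which was read as a score of unknown scale and used only by rank within its list.

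Regions were assigned with GENCODE v44 (human) and vM21 (mouse), counted from 1. A promoter region lay within 1 kb of a transcript start. Sharing needed 1 bp of overlap, and a shared region was paired with the partner of largest overlap. Regions were aligned between species with BLAST 2.17.0 (E-value 1e-05) and sequences read with pysam 0.24.0. Tables were made with pandas 2.3.3. The pairing was tested on simulated lists. Members and lists were chosen with earlier results of these data known. Named one by one by rule were, per list, the one-list region of highest score at each gene, and per pair the 5 largest rises and 5 largest falls. Of the other Wnt genes, the 3 with the most one-list regions per list and any whose window overlaps a member's were named. Regions and sequences beyond these were chosen after their values were seen. Alternatives covered the flank, the overlap, list size, ranking, the upper 50% by score, the motif and TCF7L2 left out. No other gene was left out.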

Additional observations from a re-analysis of the deposited data

How the results depend on the processing

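Of 70 alternatives to the 10 values that answer a comparison, 62 gave the same result, 5 moved and 3 reversed. A share was counted as the same while it stayed inside the Wilson interval of the main value, however wide. The KO-only share, 1.96% (interval 0.539–6.87), rose at equal list size to just below the upper end of its interval. That rise was still counted as the same result, so the tally does not show that shares were unchanged. With lists cut to equal size by score, the control-only share was 13.3% (whole list 15.1%), the tumor-only share 17.4% (15.6%) and the mets-only share 13.2% (14.0%), while the median change in percentile reversed, to 1.88 in HPAF-II and −1.34 in KPC. With regions ranked among shared regions alone, the HPAF-II median reversed to 2.63. The whole-list medians in these settings were 0.34, −0.63 and 0.68, so the sign of these medians depends on how regions are ranked. At LEF1 the median was still lower, at −27.09 at equal size and −25.89 with ranks among shared regions. The TCF/LEF sequence share was 13.4% of control regions with CTTTGAA also counted (6.81% of the whole list), and 9.60% of liver mets regions with 400 bp searched (5.72%). For role groups and genes, 309 of 334 alternatives gave the same result, 20 moved and 5 reversed. Reversed were the HPAF-II medians at ASCL2 (2.63 with ranks among shared regions and 2.84 at equal size), the stem-cell genes (3.78 and 4.33) and the TCF/LEF factors (0.63 with ranks among shared regions). Keeping only pairs in which 1 region overlaps 1 region, a setting chosen after seeing the data, gave medians of −3.65 and 4.36. No paired analysis was possible because each group was 1 list with no value per replicate, and for the same reason no replicate could be left out. Depth is unknown and limits every count of absent regions.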
